A study of Mus musculus with 4 samples.

Results

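The BTB zinc finger genes examined here were the 41 protein-coding mouse genes whose symbol begins with Zbtb followed by a number, out of 21938 protein-coding genes of the GENCODE M21 annotation on the numbered chromosomes, X and Y. They lie on 15 chromosomes, and each was searched for Foxr2 peaks in the gene body with 10 kb on either side and within 1 kb of any protein-coding transcript start. Foxr2 occupancy was mapped by CUT&RUN, in which an antibody brings a nuclease to its target on chromatin so that the DNA around the target is released and sequenced. The antibody recognized the V5 tag, with 2 replicates in each of the 2 groups. The Foxr2 p53LOF group is a neurosphere line grown from GFP-sorted tumor cells of C57BL/6J mice (labeled genotype FOXR2 P53LoF). Its tumor arose after in utero electroporation (IUE) of embryonic neural stem cells with a vector that drives V5-tagged FOXR2 from the CAG promoter, together with a CRISPR vector against Trp53. The V5 control group comes from a different IUE model on the same strain, labeled H3.3G34R, whose cells lack the tag. Every sample held 500000 cells fixed for 1 minute in 0.1% formaldehyde. The groups therefore differ in genotype as well as in the tag, these effects cannot be told apart, and the sources do not say whether the replicates are separate cultures.

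BTB zinc finger proteins are transcription factors that carry a BTB (POZ) domain at the N terminus and C2H2 zinc fingers toward the C terminus. The zinc fingers read DNA, and the BTB domain joins the protein to a partner of the family and recruits corepressors such as NCoR and BCOR, or the ubiquitin ligase scaffold CUL3. Members of the family are best known as switches of lineage choice in blood and brain, and a few of them bind methylated CpG or telomeric repeats. Zbtb8os is the exception within the name rule: it encodes archease, a cofactor of the tRNA ligase, and takes its symbol from its genomic neighbor.

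Peaks had been called in each library on its own. The Foxr2 p53LOF lists held 31909 and 38580 peaks in replicates 1 and 2, and the V5 control lists held 308 and 124. Over the coding sequence of Foxr2 on chromosome X (153130135 to 153131040), which the tagged vector carries, both Foxr2 p53LOF replicates had a peak, with folds of 5.74 and 6.24, and neither control replicate had one. A fold is the fragment coverage at the peak summit over the background of the same library. Reproducible sites are stretches where peaks of both Foxr2 p53LOF replicates overlap after removal of peaks that touched a control peak by 10 bp or more, had a fold of 6 or less or a −log10 q of 6 or less, or reached 10000 bp. There were 11947 of them. Sites were ranked by the lower of their 2 folds, and a promoter site is one that lies within 1 kb of a start.

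Foxr2 sites stood at the promoters of most BTB zinc finger genes. A reproducible promoter site was present at 29 of the 41 genes (70.7%), where 39.4% of all protein-coding genes had one. Within the wider gene region, 34 genes (82.9%) held a site, against 50% of all protein-coding genes. Before the filter, peaks of both replicates lay within 1 kb of a start at 36 genes (87.8%), against 51.5% of all genes, and Zbtb8b alone had no peak at its start in either replicate. None of the 41 gene regions held a V5 control peak, and only 0.556% of all protein-coding genes had one. These counts were set beside the counts over all genes without a test. Neighboring members that share a promoter are not independent of each other, and the 29 genes rest on 28 different best sites.

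The folds lay near those of other genes with a promoter site. At the 29 promoter sites the median fold was 11.5 in replicate 1 (range 6.19 to 23.0) and 13.1 in replicate 2 (range 6.57 to 30.2), while the medians over all 8642 genes with a promoter site were 10.6 and 12.2. The median of the lower fold was 10.6 for the BTB zinc finger genes and 10.2 for all genes, so that 16 of the 29 lay above the median of all genes. Only Zbtb3 and Zbtb10 entered the highest 10%, which began at a lower fold of 19.0. Replicate 2 had the higher fold at 24 of the 29 genes (82.8%), as it did at 75.1% of all genes with a promoter site. The folds of the replicates ranked the 29 genes alike, with a Spearman rho of 0.822 across genes that share their libraries, beside 0.826 over all genes with a promoter site.

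**Figure D1:**
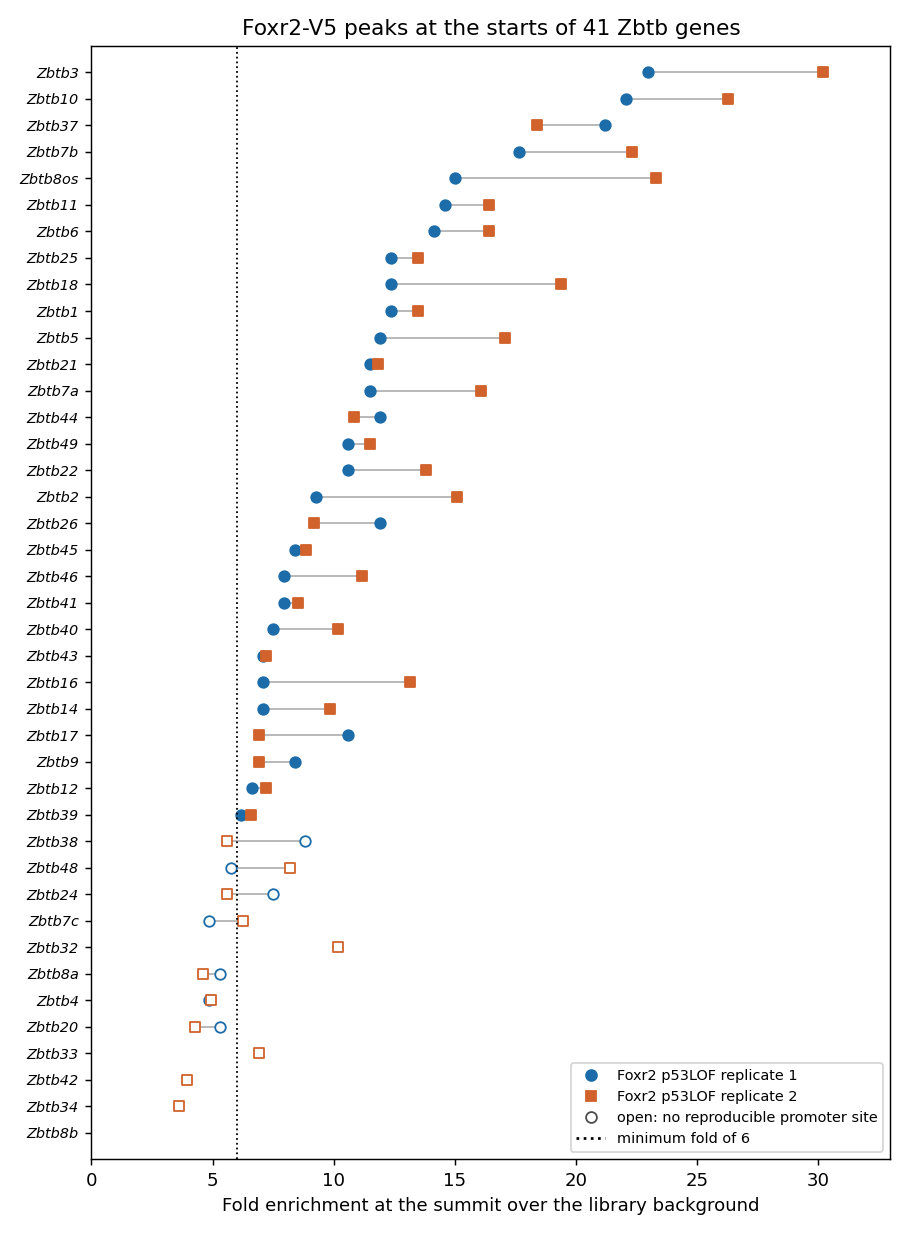
Fold enrichment at the summit (horizontal axis, fold over the library background) of Foxr2 peaks at the starts of the 41 Zbtb genes (vertical axis). Circles mark Foxr2 p53LOF replicate 1 and squares mark replicate 2. Genes with a promoter site show the peaks of their best site and are ordered by the lower fold. The others show the strongest peak of each replicate and are ordered by the sum of the folds, and Zbtb8b has no symbol. Filled symbols mark the 29 genes with a reproducible promoter site, which run from Zbtb39 (6.19 and 6.57) to Zbtb3 (23.0 and 30.2), open symbols mark genes without one, and the dotted line is the minimum fold of 6.

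**Figure D2:**
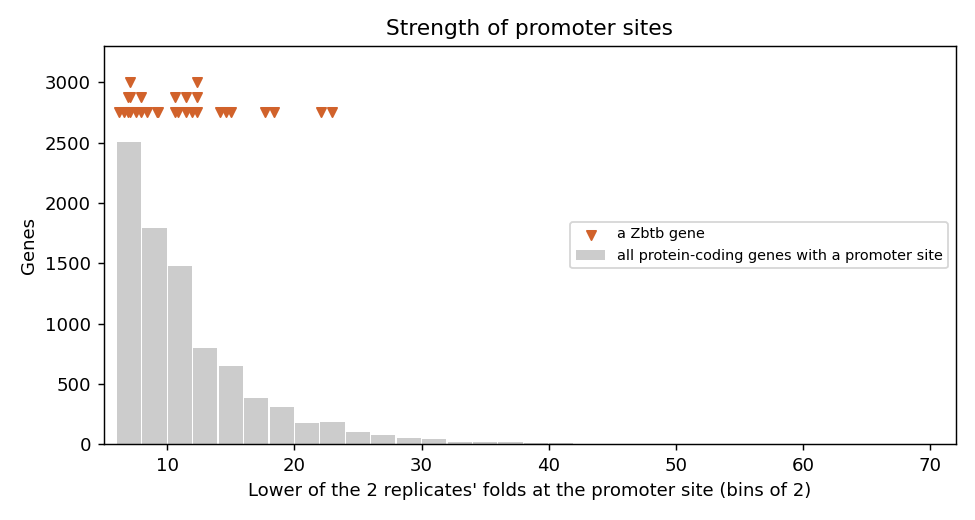
Number of protein-coding genes (vertical axis) by the lower of the replicates' folds at their promoter site (horizontal axis, bins of 2), with each of the 29 Zbtb genes that have a site drawn as a triangle above the bars, where the height of a triangle has no meaning. The triangles spread over the body of the distribution from 6.19 to 23.0, and none reaches the long upper tail, whose highest lower fold is 70.7.

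Promoters are printed for 6 genes that mark the ends and the middle of this range. Zbtb3 and Zbtb37 carried sites among the strongest of the family, Zbtb6 held a pair of promoter sites, Zbtb25 faces Zbtb1 across a shared promoter, and Zbtb33 and Zbtb34 had no reproducible site. Each window runs from 250 bases before to 50 bases after the RefSeq gene start (GRCm38.p6) and is written 5′ to 3′ on the strand of the gene. Capitals mark the ETS core CCGGAAG, read as CTTCCGG on the other strand, and the E-box CACGTG, which were searched on both strands along with other motifs treated further on.
Zbtb3 (chr19:8802298-8802597, forward strand): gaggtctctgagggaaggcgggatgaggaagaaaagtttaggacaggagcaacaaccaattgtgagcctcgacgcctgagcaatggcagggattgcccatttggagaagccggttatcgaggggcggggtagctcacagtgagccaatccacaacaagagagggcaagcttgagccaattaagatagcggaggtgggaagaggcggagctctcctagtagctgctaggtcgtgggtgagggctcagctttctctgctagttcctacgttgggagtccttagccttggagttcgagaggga
Zbtb37 (chr1:161034800-161035099, reverse strand): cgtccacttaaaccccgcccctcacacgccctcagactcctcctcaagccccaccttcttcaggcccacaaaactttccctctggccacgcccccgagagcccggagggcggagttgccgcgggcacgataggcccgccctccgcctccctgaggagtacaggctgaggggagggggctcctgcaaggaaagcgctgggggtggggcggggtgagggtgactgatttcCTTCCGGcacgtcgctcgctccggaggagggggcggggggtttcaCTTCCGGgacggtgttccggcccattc
Zbtb6 (chr2:37430870-37431169, reverse strand): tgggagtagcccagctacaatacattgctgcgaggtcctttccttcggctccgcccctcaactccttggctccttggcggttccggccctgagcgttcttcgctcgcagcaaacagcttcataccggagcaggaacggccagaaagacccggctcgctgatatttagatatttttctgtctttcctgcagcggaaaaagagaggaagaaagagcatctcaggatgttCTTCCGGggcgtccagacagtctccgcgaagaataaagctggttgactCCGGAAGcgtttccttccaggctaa
Zbtb25 (chr12:76369511-76369810, reverse strand): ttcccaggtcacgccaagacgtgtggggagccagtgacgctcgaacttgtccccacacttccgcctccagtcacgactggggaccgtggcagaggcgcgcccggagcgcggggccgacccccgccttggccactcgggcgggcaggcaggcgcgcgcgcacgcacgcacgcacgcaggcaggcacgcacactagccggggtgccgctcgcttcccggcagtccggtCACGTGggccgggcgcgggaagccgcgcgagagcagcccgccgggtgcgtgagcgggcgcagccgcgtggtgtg
Zbtb33 (chrX:38189543-38189842, forward strand): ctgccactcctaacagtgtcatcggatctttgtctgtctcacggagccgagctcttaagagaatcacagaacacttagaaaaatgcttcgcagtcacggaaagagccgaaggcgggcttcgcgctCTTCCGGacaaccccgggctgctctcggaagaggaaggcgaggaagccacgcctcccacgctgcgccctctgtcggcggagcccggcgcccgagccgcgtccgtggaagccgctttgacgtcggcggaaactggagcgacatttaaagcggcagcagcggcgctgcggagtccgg
Zbtb34 (chr2:33431275-33431574, reverse strand): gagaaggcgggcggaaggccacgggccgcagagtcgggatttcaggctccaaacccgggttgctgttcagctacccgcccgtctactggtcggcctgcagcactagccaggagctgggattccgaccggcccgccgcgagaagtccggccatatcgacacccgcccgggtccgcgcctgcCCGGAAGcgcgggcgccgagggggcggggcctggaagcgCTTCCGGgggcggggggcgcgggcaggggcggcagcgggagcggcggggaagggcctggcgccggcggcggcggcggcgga
The strongest promoter of the family, that of Zbtb3, held neither motif, and the weakly covered promoters of Zbtb33 and Zbtb34 both held the ETS core. A match describes the letters of the window and is not a binding site.

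Zbtb3 had the highest fold of the family, 23.0 in replicate 1 and 30.2 in replicate 2. With 51 and 91 fragments at the summits, the 95% Poisson intervals were 17.2 to 30.1 and 24.4 to 37.0, which cover counting error alone, as do the other intervals given here. The gene is the shortest of the family (2.292 kb, chromosome 19, 8802555 to 8804846, forward strand), and the site from 8801861 to 8803477 spans its start, with the replicate summits 95 and 14 bp past it. Zbtb10 followed, with 22.1 and 26.3, and its summits lay 473 and 497 bp upstream of the start on chromosome 3 (site 9249258 to 9252358). In both genes replicate 2 was higher and the intervals of the replicates overlapped. Zbtb37 had 21.2 and 18.4 and was the only one of the first 12 genes in which replicate 1 was the higher. Its summits at 161034794 and 161034782 on chromosome 1 were 12 bp apart, just past the start and close to both ETS matches printed above, which begin 29 to 86 bp away.

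Members known from blood cells ranged from high folds to no promoter site. Zbtb7b encodes ThPOK, which commits thymocytes to the CD4 helper fate, and its promoter site on chromosome 3 (89390854 to 89395493) had folds of 17.7 and 22.3. Zbtb7a, the leukemia/lymphoma related factor LRF that also restrains fetal globin, had 11.5 and 16.1. Zbtb1, which lymphoid progenitors require, had 12.4 and 13.5. All 3 had the higher fold in replicate 2. Zbtb16, encoding the innate-like lymphocyte factor PLZF, had 7.07 and 13.1 at its promoter on chromosome 9, so that replicate 1 was near the minimum and its interval (4.15 to 11.4) reached below it. Zbtb46, a marker of conventional dendritic cells, had 7.95 and 11.2. Zbtb32, another lymphocyte repressor, had no promoter site.

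Zbtb18 and Zbtb20, both known from brain development, differed in the folds at their protein-coding starts. Zbtb18 encodes RP58, a repressor needed for cortical neuron differentiation, and its promoter carried folds of 12.4 and 19.4 on chromosome 1 (177441145 to 177445248). The intervals, 8.30 to 17.8 and 14.8 to 25.0, overlapped. A further site at 177446796 to 177448174 (7.95 and 19.4) rests on the same broad replicate 2 peak, whose summit lies in the first site. Zbtb20, which patterns the hippocampus and acts in astrocyte formation, had weak peaks of 5.30 and 4.27 at its protein-coding starts on chromosome 16 and no promoter site by the rule. A stronger site with folds of 15.9 and 24.3 lay at 42874330 to 42876787, over the 5′ end of the annotated gene at 42875881. That end belongs to a transcript of the retained intron type, and the site was 31717 bp upstream of the nearest protein-coding start. With starts of any transcript type counted, Zbtb20 became the 30th member with a promoter site.

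Zbtb11, Zbtb5, Zbtb21 and Zbtb8os also had lower folds above 11. Zbtb11 had 14.6 and 16.4 (chromosome 16, 55972122 to 55975344), with summits on opposite sides of the start, 908 bp inside the gene in replicate 1 and 393 bp upstream in replicate 2. Zbtb5 had 11.9 and 17.1, with summits 83 and 97 bp upstream of its nearest start on chromosome 4. Zbtb21 had 11.5 and 11.8, tied with Zbtb7a in the lower fold. Zbtb8os, the archease gene, had 15.0 and 23.3 at a site that it shares with Rbbp4, a histone chaperone gene read from the other strand. Without Zbtb8os the family counted 28 promoter sites in 40 genes (70%).

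Apart from Zbtb6 and Zbtb25, described with the shared promoters, the remaining promoter sites had lower folds between 6.19 and 10.8. In this range stood Zbtb17, which encodes the MYC partner MIZ1, with 10.6 and 6.90, one of 5 genes with the higher fold in replicate 1. Zbtb44 (11.9 and 10.8), Zbtb26 (11.9 and 9.20), Zbtb9 (8.39 and 6.90) and Zbtb37 were the others. Zbtb2 had 9.28 and 15.1, Zbtb22 had 10.6 and 13.8, and Zbtb49 had 10.6 and 11.5. Zbtb45, Zbtb41, Zbtb40, Zbtb14, Zbtb43 and Zbtb12 ran from 8.39 and 8.87 in Zbtb45 down to 6.63 and 7.23 in Zbtb12. Zbtb39 was the lowest with 6.19 and 6.57, from 13 and 19 fragments, where a fold above 6 needs 13 fragments in replicate 1 and 18 in replicate 2. The order in this range is loose, since the intervals of neighboring genes overlapped. Over the 29 genes, the lower bound of the interval stayed above 6 in both replicates at 17 and reached 6 or less in at least 1 replicate at 12.

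Several members stand at promoters shared with another gene. In 10 of the 29 a promoter site also lay within 1 kb of the start of another protein-coding gene. The same share over all genes with a promoter site is not given here, so the count describes these members only. Starts of noncoding genes were not searched. Zbtb1 and Zbtb25 lie head to head on chromosome 12, with starts at 76370266 and 76369602, and share the site from 76367624 to 76372564, the longest of the family at 4941 bp. Its folds of 12.4 and 13.5 are thus one measurement for both genes. The summit was 36 bp inside Zbtb1 in replicate 1 and between the starts in replicate 2, 445 bp upstream of Zbtb1 and 219 bp upstream of Zbtb25. Zbtb6 and Zbtb26 overlap on the reverse strand of chromosome 2, opposite Rabgap1, with the span of Zbtb26 inside that of Zbtb6. A site at 37442207 to 37444221 (11.9 and 9.20) covered starts of all 3 genes, and Zbtb6 had a stronger one at a start of its own (37430275 to 37433096, 14.1 and 16.4). Counted at the outermost 5′ end alone, Zbtb6 took the shared site, and its lower fold went from 14.1 to 9.20. Zbtb6 counted among the 10 through the shared site. Besides Zbtb8os with Rbbp4, the other shared promoters paired Zbtb9 with Ggnbp1, Zbtb12 with C2, Zbtb21 with C2cd2, Zbtb22 with Tapbp and Zbtb49 with Lyar.

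No reproducible promoter site was present at 12 of the 41 genes. Zbtb33, Zbtb4 and Zbtb38 encode readers of methylated CpG and were singled out after their values were seen. Zbtb33, the X-linked gene of Kaiso, had no peak in replicate 1 and a peak with a fold of 6.90 in replicate 2. Zbtb4 had peaks of 4.86 and 4.93, with the summits 394 and 1538 bp past an internal start. Zbtb38 had 8.84 in replicate 1, which passed the filter, and 5.59 in replicate 2, which failed on its fold. Each of the 3 genes had a peak in replicate 2, Zbtb33 and Zbtb38 passed in a single replicate, and Zbtb38 gained a site with no minimum fold. Zbtb48, whose product TZAP binds telomeric repeats, had 5.74 and 8.21 and missed the minimum in replicate 1 only. Zbtb24, mutated in the immunodeficiency ICF syndrome, had 7.51 and 5.59 and missed it in replicate 2 only.

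The other 7 of the 12 were weak or were seen in replicate 2 alone. Peaks of both replicates were present at Zbtb7c (4.86 and 6.24) and Zbtb8a (5.30 and 4.60), besides Zbtb20 as given above. A peak in replicate 2 only was present at Zbtb32 (10.2), Zbtb42 (3.94) and Zbtb34 (3.61), and Zbtb8b had none. The Zbtb32 peak passed the filter, and its summit lay 1464 bp upstream of the start, where a narrower site of both replicates at 30600009 to 30600667 on chromosome 7 lay just beyond the 1 kb limit. Of the strongest peaks at these genes, taken once per gene and replicate, 12 failed, 8 on both fold and q and 4 on the fold alone. Some of the genes had further, weaker peaks at their starts that are not counted here. Their intervals ended between 6.37 (Zbtb34) and 9.70 (Zbtb48), above the minimum of 6 and below where the intervals of Zbtb3 and Zbtb10 began. No peak of either control replicate lay in the region of any of the 12 genes.

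Outside the promoters, sites in the gene regions mostly belonged to the starts of neighbors. The 34 genes shared 46 different region sites, of which 29 lay at a start of a member, 13 at the start of another protein-coding gene and 4 at no protein-coding start. Region sites were most numerous at Zbtb6 and Zbtb26, with the same 4 each, and at Zbtb22 with 3, and no other member had more than 2. The 4 sites of the chromosome 2 pair were those described above and sites at Rc3h2 (8.84 and 12.8) and Rabgap1 (7.51 and 8.21). At Zbtb22 on chromosome 17 the promoter site lay between one at Daxx (10.2 and 13.5), a histone chaperone gene, and a second one at Tapbp (7.95 and 11.5). Zbtb1 reached its count of 2 through Hspa2 (12.8 and 14.5), Zbtb5 through Polr1e (8.39 and 8.54), Zbtb11 through the ribosomal protein gene Rpl24 (11.0 and 11.2), Zbtb12 through the histone methyltransferase gene Ehmt2 (15.5 and 15.8) and Zbtb41 through Aspm (11.9 and 10.5).

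A neighbor also accounted for the region site of 4 of the 5 genes that had a region site and no promoter site. The strongest site in any member's region lay 6975 bp upstream of Zbtb4, at the start of Polr2a, which encodes the largest subunit of RNA polymerase II, with folds of 27.4 and 36.8 (chromosome 11, 69754525 to 69760736). Zbtb48 had the site of Klhl21 in its region (18.1 and 18.1), Zbtb42 that of Akt1 (6.63 and 7.56), and Zbtb32 that of the histone methyltransferase gene Kmt2b (13.7 and 16.1) besides its own upstream site (7.51 and 10.2). Zbtb20 was the fifth, with the site at its 5′ end. The 4 sites at no protein-coding start were these sites of Zbtb20 and Zbtb32 and an intronic site each in Zbtb16, at 48662542 to 48663192 (9.28 and 8.87) and 172896 bp from the nearest start of the gene, and in Zbtb40, at 137042676 to 137045027 (8.39 and 8.87). No region site was found for Zbtb7c, Zbtb8a, Zbtb8b, Zbtb24, Zbtb33, Zbtb34 and Zbtb38. With the gene body alone counted, 31 members (75.6%) held a site, against 42.3% of all genes.

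Within the promoters the summits were scattered around the start. The median distance from the nearest start was 303 bp in replicate 1 and 219 bp in replicate 2, against 207.5 and 206 bp for all genes with a promoter site. Summits within 250 bp of a start were seen at 11 of the 29 genes in replicate 1 and at 16 in replicate 2, where the shares over all genes with a promoter site were 59.4% and 60.3%. They lay upstream of the nearest start at 13 genes in replicate 1 and 15 in replicate 2. By annotation, the summit of replicate 1 fell in an intron at 14 genes, upstream of the gene at 8 and in an exon at 7. The summits of the replicates lay apart by a median of 256 bp, and farthest at Zbtb43. There the replicate 2 summit, at 33466439, lay farther inside the gene than the replicate 1 summit, at 33468214, and outside the stretch that both peaks cover. Where a gene has several starts each summit is measured from the start nearest to it, which differed between the replicates at Zbtb7a, Zbtb41, Zbtb43 and Zbtb45. The sites had a median length of 1855 bp (902 to 4941), beside 1909 bp for all genes with a promoter site.

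**Figure D3:**
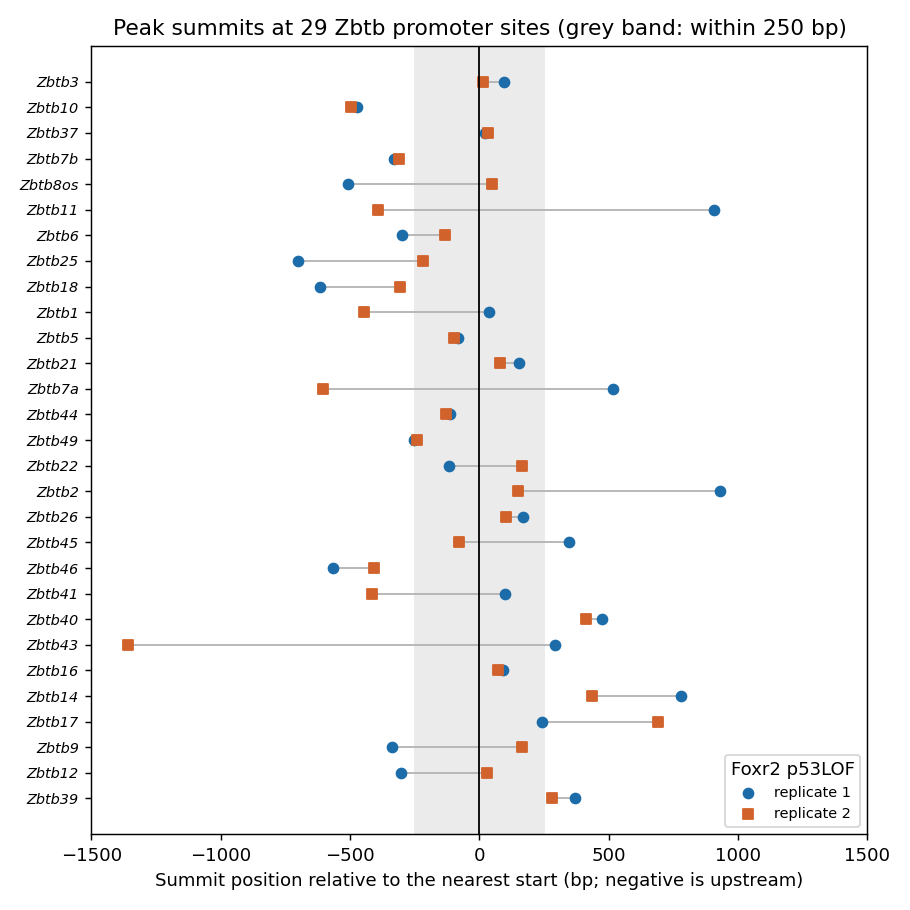
Position of the peak summit relative to the nearest start of the gene (horizontal axis, bp, negative values upstream) at the promoter sites of 29 Zbtb genes (vertical axis, ordered by the lower fold), with circles for Foxr2 p53LOF replicate 1 and squares for replicate 2 joined by a line. The gray band marks 250 bp on either side, which held 11 summits of replicate 1 and 16 of replicate 2, and at Zbtb7a, Zbtb41, Zbtb43 and Zbtb45 the joined symbols are measured from different starts of the gene.

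Base composition of the promoter moved with the share of genes that had a site. RefSeq promoter windows were matched for 36 of the 41 genes, and those of Zbtb7c, Zbtb10, Zbtb16, Zbtb40 and Zbtb48 were not used. The windows of the family had a median GC content of 65.7% and a median ratio of observed to expected CpG of 0.840, against 57% and 0.602 for 16506 protein-coding genes with a window. CpG-rich promoters (GC content of 55% or more and a CpG ratio of 0.65 or more) were present at 26 of the 36 members (72.2%) and at 40.0% of all genes with a window. Among the 26 CpG-rich members 22 had a promoter site (84.6%), against 69.6% of all CpG-rich genes, and among the other 10 members 4 had one, against 22.9% of all such genes. The distance between the family and all genes was thus 31.3 percentage points over all members and 15.1 points within CpG-rich promoters. Whether base composition has a part in the sites was not tested.

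The 10 members without a CpG-rich window included both extremes of occupancy. Zbtb3 (CpG ratio 0.523), Zbtb7b (0.510), Zbtb6 (GC content 54.3%) and Zbtb46 had a promoter site, and Zbtb4, Zbtb8a, Zbtb8b, Zbtb20, Zbtb32 and Zbtb38 had none. The 4 CpG-rich members with no site were Zbtb24, Zbtb33, Zbtb34 and Zbtb42. The Zbtb46 window, with a CpG ratio of 0.0520, belongs to a RefSeq start that is not the one under the site, and 24 of 26 windows of members with a promoter site overlapped that site. The windows of Zbtb20 and Zbtb38, which had no site, likewise lay away from the peaks at their starts.

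The ETS core CCGGAAG, on either strand, was found in the windows of 11 of 36 members (30.6%), in 12.4% of all windows and in 20.4% of CpG-rich windows. The members were Zbtb6, Zbtb9, Zbtb11, Zbtb24, Zbtb26, Zbtb33, Zbtb34, Zbtb37, Zbtb41, Zbtb43 and Zbtb45. A promoter site was present at 8 of these 11 and at 18 of the 25 members without a match, so that presence of the core did not separate members with a site from those without. Over all windows 71.5% of genes with a match had a site, against 37.3% of genes without. The NRF1 motif GCATGCGC matched Zbtb14, Zbtb17, Zbtb41 and Zbtb43 (11.1%, against 3.77% of all windows and 6.54% of CpG-rich ones). All 4 had a site, as did 71.4% of all genes with this match. The E-box CACGTG matched Zbtb11, Zbtb21, Zbtb24, Zbtb25 and Zbtb49 (13.9%, against 8.11% of all windows and 11.8% of CpG-rich ones), and 4 of the 5 had a site, where 56.8% of all genes with this match had one. The palindrome CTCGCGAG, a sequence linked to Kaiso, matched no member and 1.36% of all windows. None of the other motifs contains the ETS core.

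The share of 70.7% among Zbtb genes lay below that of the 8 BTB zinc finger genes with other names (7 genes, 87.5%) and above those of Zfp genes and of BTB genes without zinc fingers. Zfp131 belongs to both the first and the second of these groups. Zinc finger genes named Zfp with a number had a promoter site at 231 of 394 (58.6%), and the BTB genes without zinc fingers, named Klhl or Btbd, at 19 of 79 (24.1%). Within CpG-rich promoters the shares were 77 of 105 (73.3%) and 9 of 18 (50%). The median lower fold was 9.28 for Zfp genes with a site and 8.54 for Klhl and Btbd genes, where it was 10.6 for the Zbtb genes and 11.9 for the BTB zinc finger genes with other names. These differences were not tested.

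**Figure D4:**
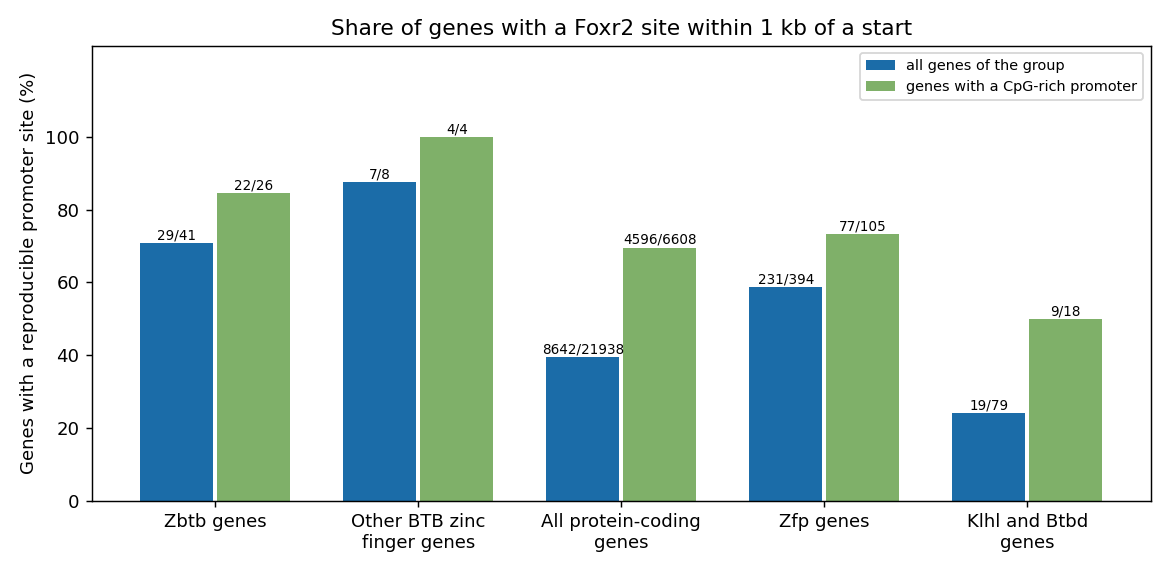
Share of genes with a reproducible Foxr2 promoter site (vertical axis, percent) in 5 groups (Zbtb genes, BTB zinc finger genes with other names, all protein-coding genes, Zfp genes, and Klhl and Btbd genes), with blue bars for all genes of a group, green bars for its genes with a CpG-rich promoter and the counts above each bar. The blue bars run from 24.1% in Klhl and Btbd genes to 70.7% in Zbtb genes and 87.5% in the 8 genes with other names, and the green bars from 50% to 84.6% and 100% in the same groups.

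BTB zinc finger genes that carry other names mostly had sites too, at 7 of 8 genes and at all 4 with a CpG-rich window, where 39.4% of all protein-coding genes and 69.6% of CpG-rich genes had one. Patz1 had the highest folds of the 8 in replicate 2 (24.7 and 35.5), and Zfp131 (26.5 and 28.3) and Mynn (23.0 and 25.6) matched or passed the strongest Zbtb gene in replicate 1. The tumor suppressor gene Hic1 had 11.9 and 17.7, its relative Hic2 had 8.39 and 12.2, and Gzf1 had 7.51 and 10.5. Bcl6, the repressor that directs germinal center B cells, had 11.0 and 13.8, whereas its paralog Bcl6b had peaks of 7.51 and 4.93 at its starts and no promoter site. No control peak lay in the regions of these 8 genes.

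Genes for the corepressors and partners that BTB domains recruit were covered in part. A promoter site was present at 7 of 11 (63.6%), against 39.4% of all protein-coding genes, and at 5 of 6 with a CpG-rich window, against 69.6% of CpG-rich genes. Sin3a, a histone deacetylase scaffold, had 22.1 and 41.7, and Ncor1, which encodes NCoR, had 12.8 and 18.4. Cul3 (11.9 and 11.8), Rcor1 (11.5 and 14.5), Gps2 (10.2 and 12.5), Hdac3 (8.84 and 8.87) and Tbl1xr1 (7.07 and 8.21) followed. Bcor (4.42 and 4.60) and Bcorl1 (3.98 and 5.59), both on chromosome X as is Zbtb33, had peaks of both replicates at a start and no site. The same held for Sin3b (3.53 and 4.60) and the deacetylase gene Hdac1 (6.63 and 5.26). All 11 thus had peaks of both replicates before the filter, as did 51.5% of all protein-coding genes.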

How the data were processed

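The authors trimmed the reads with Trimmomatic 0.39, aligned them to mm10 with BWA 0.7.17, removed duplicates with Picard 2.26.6, made tracks with HOMER 4.11 and called peaks with MACS2 2.2.7.1 in the GenPipes pipeline, one list per library and with no input library named. In the deposited lists the fold is a ratio made by the authors' MACS2 run, the fragments at the summit plus 1 over the background plus 1. The deposited −log10 p-values and −log10 q-values were computed by MACS2 library by library, and the score the authors deposited is 10 times the −log10 q. The lists give no read totals, so precision was taken from the fragments at each summit. The background was recovered as the value at which folds up to 30 give whole fragments (tolerance 0.02) whose Poisson p-values match the deposited −log10 values (tolerance 0.05), and it came to 1.26 and 2.04 fragments for Foxr2 p53LOF and to 1.69 and 0.6425 for the V5 control.

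Peaks were filtered on control overlap, fold, q and length with the limits of the study's methods, and 13418 and 14864 passed. The study's further intersection with open chromatin was not used here. Replicates had to overlap by 1 bp. Genes and starts came from GENCODE M21, and promoter windows from RefSeq (GRCm38.p6). Coordinates are GRCm38 (mm10), counted from 1. Scripts used Python 3.11.15, numpy 2.4.6, scipy 1.17.1 and matplotlib 3.10.9. On simulated data 600 of 600 planted sites were recovered and 3000 of 3000 genes were assigned correctly. The planted peaks had fixed folds and stood well apart, so this checks the code and not the recovery of weak sites.

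One gene of the corepressor list is not reported here, and the counts of that list leave it out. Members, gene lists, motifs and alternatives were chosen with earlier results of these data known. With 2 lists per group no test between groups was run, and members were described by counts beside all genes. Values per library are given for the 12 members with the highest lower fold (Zbtb21 tied with the last), those with no promoter site and those with the most region sites. Neighbors at region sites, Zbtb20's 5′ end and the other promoter sites were named after their values were seen. Alternatives changed the overlap with control peaks, the minimum fold and q, the peak length, the overlap between replicates, the promoter and gene windows, the starts used, folds scaled by chromosome, leaving out Zbtb8os and leaving out each replicate.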

Additional observations from a re-analysis of the deposited data

How the results depend on the processing

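The share of members with a promoter site stayed above that of all genes under every alternative run, but the number moved with the minimum fold and q. At a minimum fold of 10 the promoter sites fell from 29 to 16 members (39.0%, against 19.8% of all genes), with a median lower fold of 12.4. With no minimum fold 32 members (78.0%, against 43.2%) had one, with Zbtb24, Zbtb38 and Zbtb48 gained. With no minimum on fold or q, 36 members (87.8%, against 50.7%) had one, with a median lower fold of 8.80, and Zbtb4, Zbtb7c, Zbtb8a and Zbtb20 were gained as well. At a minimum −log10 q of 10, 24 members (58.5%, against 33.7%) kept a site, and Zbtb12, Zbtb14, Zbtb16, Zbtb39 and Zbtb43 lost it. Leaving out each replicate in turn gave 29 to 33 promoter sites, 34 to 38 region sites, 36 to 40 members with peaks before the filter and a median lower fold of 10.6 to 11.5. Without Foxr2 p53LOF replicate 1 the members gained were Zbtb7c, Zbtb32, Zbtb33 and Zbtb48, and without replicate 2 they were Zbtb24 and Zbtb38, while leaving out a control replicate moved no member. Counting starts of transcripts of any type, chosen after the data were seen, gave 30 promoter sites. At the outermost 5′ end alone, Zbtb20 gained a site and Zbtb12 lost its own. Folds were scaled by the level of their chromosome after the filter, which can change no call, and gave a median lower fold of 11.2. No paired analysis was possible because the results are counts and folds from peak lists and come from no test. Depth limits the weakest calls: 12 of the 29 promoter sites have a fold whose interval reaches the minimum of 6, and the intervals of failing peaks overlap those of the weakest sites.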
